A study of Mus musculus with 12 samples.

Results

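The islet G protein-coupled receptors described here were 38 mouse genes listed by name for their known roles in islet signalling, with earlier results of these data known, and they make up 38 of the 37991 rows of the count table. All 38 had a row under their Ensembl identifier. RNA was sequenced from pancreatic islets of male C57BL/6 mice of 2 genotypes, the Tg7 line with β-cell-specific overexpression of miR-7a2 and its wild-type (Wt) littermates. Islets were taken at 2 weeks of age (2w), when Tg7 mice are still normoglycaemic, and at 12 weeks (12w), when they are hyperglycaemic. Each of the 4 groups (Wt 2w, Tg7 2w, Wt 12w and Tg7 12w) had 3 libraries, and each library was a pool of islets from at least 3 animals. The Tg7 line is a single transgenic model whose promoter the sources used here do not name, and the islets held every islet cell type. In such whole-islet RNA, fewer cells of a type and less RNA per cell cannot be told apart.

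G protein-coupled receptors let islet cells read hormones, neurotransmitters and nutrients. Receptors that couple to Gs raise cyclic AMP and those that couple to Gq raise inositol phosphates and calcium, and both kinds amplify glucose-induced insulin secretion. Receptors that couple to Gi lower cyclic AMP and restrain secretion, as somatostatin and noradrenaline do. By textbook coupling the genes fell into 10 Gs receptors, 9 Gq receptors, 15 Gi receptors and 4 receptors with several or no known G proteins.

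The agent that separates the genotypes is a microRNA, so its sequence is shown first. The mature strand of the overexpressed gene is given below 5′ to 3′ from RefSeq (GRCm38.p6, chr7:78888295-78888317, plus strand), with the seed (bases 2 to 8) in capitals.
mmu-miR-7a-5p: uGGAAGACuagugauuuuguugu
A match was a run of 7 bases that pairs with bases 2 to 8 of this strand, or with bases 1 to 7. Such a match was found in the annotated 3′ UTR of 8 of the 37 receptor genes with one (21.6%). Of the 14406 tested protein-coding genes with a 3′ UTR, 3590 (24.9%) held a match. The median 3′ UTR of the receptor genes was 1290 bases and that of the tested genes 1151 bases. Ffar1 had no annotated 3′ UTR. The genes with a match were Adora1 and Casr (to bases 2 to 8) and Cckar, Cnr1, Crhr2, Gpr119, Npbwr1 and Ptger3 (to bases 1 to 7). At 12w, 1 of these 8 was called lower in Tg7 (Adora1) and 3 were called higher (Gpr119, Npbwr1 and Ptger3), which is 12.5% and 37.5% of 8 genes beside 11.2% and 12.5% of all tested genes. At 2w, Adora1 was called lower (12.5% of 8 genes, beside 4.55% of all tested genes) and the other 7 were not called. The matches of these 4 genes are shown as RNA-sense DNA with the paired bases in capitals, since the genes moved in opposite directions. Their positions in mm9 are chr1:136098338-136098344 (minus strand, Adora1), chrX:46021725-46021731 (minus strand, Gpr119), chr1:5905266-5905272 (minus strand, Npbwr1) and chr3:157269853-157269859 (plus strand, Ptger3), each in the 3′ UTR. A match of letters is a description and was not tested as a functional site.
Adora1: tgagcctggatGTCTTCCttgtatggaca
Gpr119: ctggaatcaccTCTTCCAtgaattctcat
Npbwr1: tccctgagtatTCTTCCAggacctccctt
Ptger3: attttaatattTCTTCCAacacttactgt

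Library totals ran from 11610697 to 17515758 counts. The summed level of 10 β-cell markers lay between 111000 and 181000 CPM (the count of a gene scaled to library size with edgeR's TMM factors) in the 2w Wt libraries and between 27700 and 52800 CPM in the 2w Tg7 libraries, and 8 of the 10 markers were called lower. At 12w it lay between 199000 and 483000 CPM in Wt and between 100000 and 106000 CPM in Tg7, with 8 again called lower. These sums are mostly insulin and Iapp RNA. Of 7 alpha markers 1 was called higher at each age, and of 5 delta markers 1 was called higher at 12w. Of 5 tested ductal markers 2 were called higher at 12w, with sums of 408 to 594 CPM in Wt and 703 to 992 CPM in Tg7. Of 4 PP and epsilon markers 1 was called higher at 2w, with sums of 4360 to 6570 CPM in Wt and 7820 to 11600 CPM in Tg7. Of 7 macrophage markers 1 was called higher at 2w and 1 lower at 12w, and of 4 tested Schwann markers 1 was called higher at 12w. The summed stellate and fibroblast markers rose from 85.7 to 147 CPM in the 12w Wt libraries to 380 to 403 CPM in the 12w Tg7 libraries (7 of 8 called higher), and 6 of 7 endothelial markers were called higher at 12w. At 2w the stellate sums were 316 to 458 CPM in Wt and 503 to 661 CPM in Tg7, with 6 of 8 called higher. Summed acinar markers stayed between 9.26 and 26.4 CPM in all libraries, and the lymphocyte sum reached 45.1 CPM in Tg7 2w replicate 1 but at most 11.5 CPM in the others. Beside these counts, 6.07% of all tested genes were called higher and 4.55% lower at 2w. At 12w the shares of all tested genes were 12.5% and 11.2%. The part of these cell type differences in the receptor results was not tested.

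Wt 12w replicate 4 stood apart from the other 12w Wt libraries in the receptor genes themselves. Glp1r was 4.89 times, Ffar1 4.47 times, Ghsr 4.1 times, Chrm3 3.84 times and Cnr1 3.08 times as high there as in the mean of Wt 12w replicates 1 and 2. Adora1 (1.01 times), Vipr2 (1.05 times) and Ffar3 (1.16 times) showed no such gap, and Npy1r (0.134 times) was lower. Its summed β-cell markers were the lowest of the 3 (199000 CPM against 483000 and 368000 CPM). That sum is mostly Ins2 and Ins1, at means of 230000 and 86200 CPM in 12w Wt islets, beside 129 CPM for Mafa and 126 CPM for Pdx1. It does not show the level of the other β-cell markers in this library. The alpha (25900 against 46800 and 32700 CPM) and delta sums (2010 against 4860 and 3700 CPM) were also lowest there. So was the PP and epsilon sum (3380 against 7410 and 4960 CPM). The stellate and fibroblast (147 against 85.7 and 113 CPM) and endothelial sums (500 against 385 and 444 CPM) were highest there. Results at 12w that rest on this library are therefore given with and without it.

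In 2w Wt islets receptors for fatty acids, incretins, adrenaline and somatostatin stood highest. On the scale of mean CPM per kilobase of annotated exon, which allows levels of different genes to be set side by side, Ffar1 led in 2w Wt islets at 42.1 CPM per kb, followed by Gipr at 40.1 and Glp1r at 35.5 CPM per kb. Adra2a (29.4), Sstr3 (29.2), Ffar3 (19.8) and Gcgr (19.5 CPM per kb) came next. In 12w Wt islets the mean of Glp1r was 42.8 ± 41.9 CPM per kb (SD, n = 3), that of Sstr3 37.8 ± 10.8 and that of Gipr 33.2 ± 15.6 CPM per kb, and these neighbours did not differ beyond their spread. With Wt 12w replicate 4 left out the mean of Glp1r was 18.7 CPM per kb, below Gipr at 36.9 and Sstr3 at 33.1 and next to Adora1 at 16.6 CPM per kb. Ffar1 was annotated by its coding sequence alone, so its level per kb is set against a shorter length than that of the other genes. In 12w Tg7 islets the order was led by Sstr3 at 39.2, Gipr at 20.8, Gcgr at 18.7 and Glp1r at 13.6 CPM per kb, while Ffar1 took place 21 and Adora1 place 24 of 38.

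**Figure D1:**
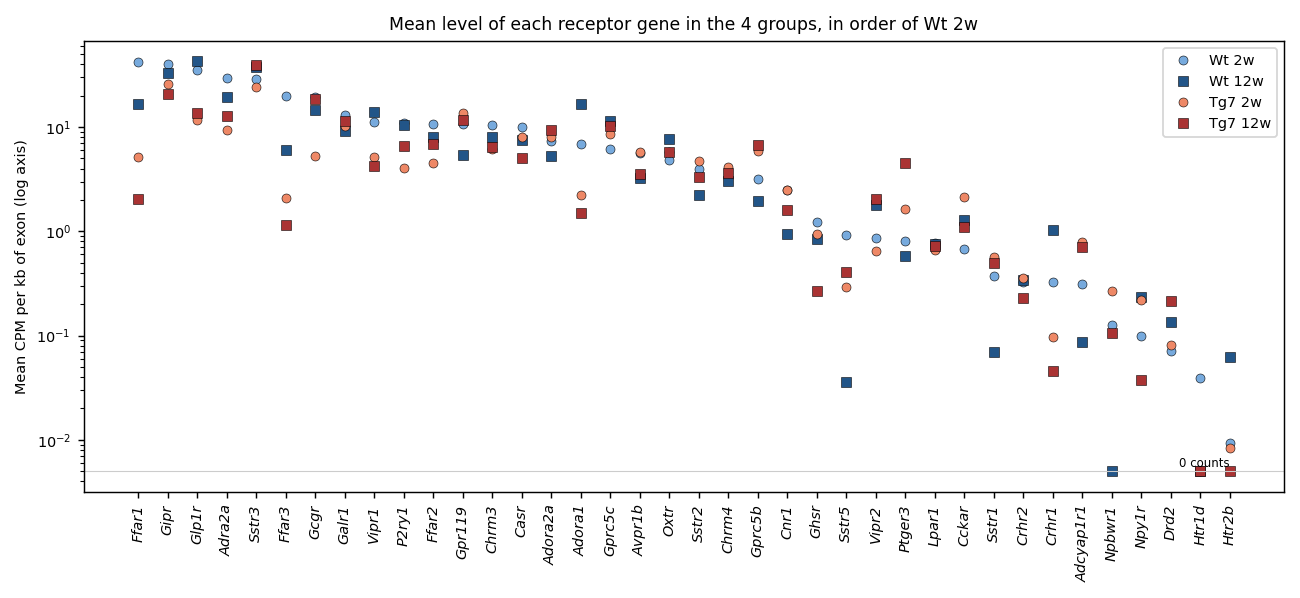
Mean level of each of the 38 receptor genes in CPM per kb of exon (log axis), in order of the 2w Wt level. Circles are 2w and squares 12w groups of 3 libraries, blue for Wt and red for Tg7, and groups without counts stand on the grey line. Ffar1 falls from 42.1 in 2w Wt to 2.06 CPM per kb in 12w Tg7 islets.

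Of the 38 receptor genes, 35 passed the expression filter and were tested. A gene is called here where the adjusted p (Benjamini-Hochberg over 15961 tested genes) of edgeR's quasi-likelihood test lay under 0.05. At 2w, 2 receptor genes were higher in Tg7 islets (5.71% of those tested, beside 6.07% of all tested genes) and 9 were lower (25.7%, beside 4.55% of all tested genes). At 12w, 8 were higher (22.9%, beside 12.5% of all tested genes) and 7 were lower (20.0%, beside 11.2%). The share called lower at 2w and both shares at 12w were thus above those of all genes, and the share called higher at 2w was not. The median log2 fold change of the 35 genes was -0.27 at 2w and -0.17 at 12w, and that of all tested genes was 0.03 and -0.01. Without Wt 12w replicate 4 the 12w median of the receptor genes was positive.

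By class, 3 of the 10 Gs genes were called lower at 2w and 1 higher, and at 12w 3 were called in each direction. Of the 13 tested Gi genes, 3 were called lower at 2w, and at 12w 3 were lower and 4 higher. Of the 8 tested Gq genes, 2 were called lower at 2w and 1 at 12w. The median log2 fold change at 12w was -0.51 over the Gq genes, -0.18 over the Gs genes and 0.29 over the Gi genes, the last of these also with Npbwr1 set at its bound. Without Wt 12w replicate 4 each of these medians was higher, and that of the Gq genes was much less negative. The contrasts of the 2 ages share no library, and 24 of 35 receptor genes had the same sign in both (68.6%, beside 70.8% of all tested genes). Pearson's r across the 35 genes was 0.56 and across all tested genes 0.52, as a description over genes that share libraries within each age.

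**Figure D2:**
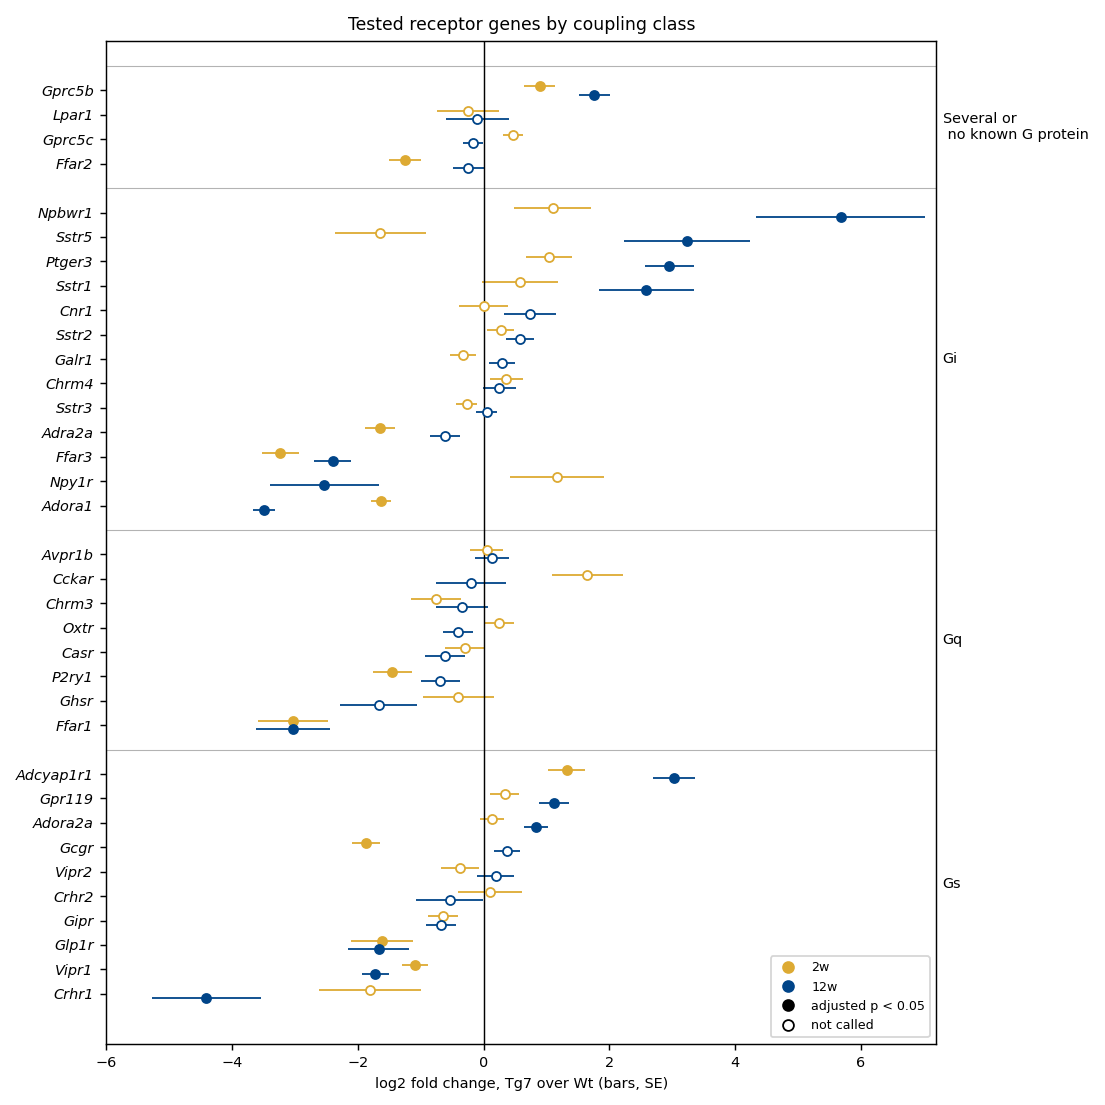
Log2 fold change of Tg7 over Wt for the 35 tested receptor genes, by coupling class, at 2w (yellow) and 12w (blue). Bars are standard errors, filled points passed the adjusted threshold, and open points did not. The fitted 12w value of Npbwr1 has no Wt counts behind it and is no bound.

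The receptors for free fatty acids fell together in 2w Tg7 islets. Ffar1, the Gq-coupled receptor for long-chain fatty acids that amplifies glucose-induced insulin secretion, was at 29.9, 42.0 and 42.0 CPM in the 2w Wt libraries and at 6.51, 4.29 and 3.18 CPM in the 2w Tg7 libraries. Ffar3, a Gi-coupled receptor for short-chain fatty acids, was at 32.8, 32.9 and 30.8 CPM in 2w Wt and at 3.95, 2.47 and 3.78 CPM in 2w Tg7 libraries. Ffar2, which also binds short-chain fatty acids and couples to more than 1 G protein, was at 26.4, 26.4 and 29.0 CPM in 2w Wt and at 10.1, 12.0 and 12.2 CPM in 2w Tg7 libraries. The Tg7 libraries lay below every Wt library for all 3 genes. The log2 fold change was -3.03 for Ffar1 (adjusted p = 0.00337, SE 0.55), -3.23 for Ffar3 (adjusted p = 1.65e-05, SE 0.29) and -1.25 for Ffar2 (adjusted p = 0.00597, SE 0.25).

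At 12w Ffar1 and Ffar3 were again lower in Tg7 islets, while Ffar2 was not called. Ffar1 was at 4.92, 8.97 and 31.1 CPM in Wt 12w replicates 1, 2 and 4 and at 1.13, 3.26 and 1.20 CPM in the 12w Tg7 libraries. The groups did not overlap, but replicate 4 held most of the Wt level. The fitted log2 fold change was -3.03 (adjusted p = 0.00229, SE 0.59) with that library and -1.91 (adjusted p = 0.00554, SE 0.43) without it. Ffar3 was at 7.31, 11.3 and 10.7 CPM in 12w Wt and at 1.01, 2.77 and 1.77 CPM in 12w Tg7 libraries, again without overlap. Its log2 fold change was -2.40 (adjusted p = 8.53e-05, SE 0.30). Ffar2 was at 10.7, 23.1 and 27.1 CPM in 12w Wt and at 19.1, 17.6 and 15.3 CPM in 12w Tg7 libraries, so the Tg7 values lay inside the Wt range. Its log2 fold change was -0.24 (adjusted p = 0.531, SE 0.25), without Wt 12w replicate 4 it was 0.02, and without replicate 1 it was -0.56 (adjusted p = 0.0211). The difference of the Ffar2 effect between ages was 1.01 (adjusted p = 0.204, SE 0.35) on the log2 scale and did not pass the test. Without Wt 12w replicate 4 it was 1.27 (adjusted p = 0.047, SE 0.32).

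These 3 genes are neighbours on mouse chromosome 7 and are read from the same strand. In mm9 Ffar2 lies at chr7:31603376-31608794, Ffar3 at chr7:31639349-31641197 and Ffar1 at chr7:31645587-31646489, all on the minus strand, within a span of 43.1 kb. Of the 8 other tested genes within 100 kb on either side, log2 fold changes at 2w ran from -1.36 to 0.64 and no call was made by edgeR, although Atp4a had an unadjusted p of 0.0225. At 12w, 2 of these 8 were called lower, Atp4a, the gastric proton pump subunit (log2 fold change -3.03, adjusted p = 0.0017, SE 0.57), and Tmem147 (-0.74, adjusted p = 0.00816, SE 0.18). Among all tested genes, 11.2% were called lower at 12w. Atp4a and Tmem147 were named after their values were seen.

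**Figure D3:**
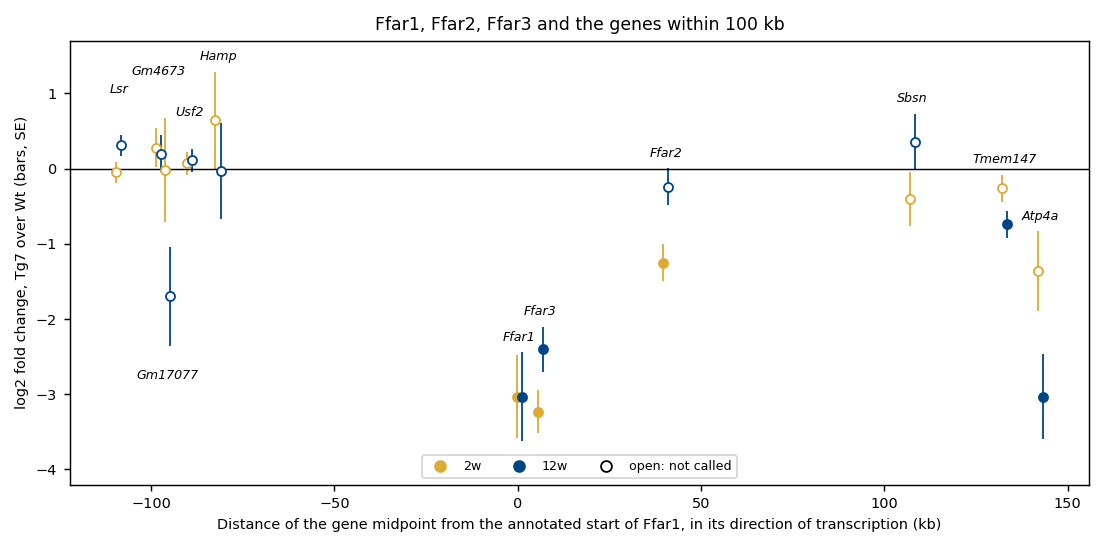
Log2 fold change (Tg7 over Wt, with SE) of the tested genes around the fatty acid receptor cluster, against the distance of each gene's midpoint from the annotated start of Ffar1 in kb. Yellow points are 2w, blue points 12w, and filled points passed the adjusted threshold. At 2w the 3 Ffar genes are the filled points, with Ffar1 and Ffar3 at -3.03 and -3.23.

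The annotated promoter windows of the 2 genes with the lowest fold changes at 2w are shown because these neighbours fell together. Each is the 250 bases before and 50 bases after the RefSeq start in GRCm38.p6, a later build than that of the counts, at chr7:30861421-30861720 (Ffar1) and chr7:30856129-30856428 (Ffar3), both on the minus strand. Capitals mark 3 kinds of match on either strand to motifs of β-cell transcription factors, namely the Maf core TGCTGA, the E-box CAGATG bound by NeuroD1-type factors, and the Pdx1-type letters NTAATN with C or T first and G or T last.
Ffar1: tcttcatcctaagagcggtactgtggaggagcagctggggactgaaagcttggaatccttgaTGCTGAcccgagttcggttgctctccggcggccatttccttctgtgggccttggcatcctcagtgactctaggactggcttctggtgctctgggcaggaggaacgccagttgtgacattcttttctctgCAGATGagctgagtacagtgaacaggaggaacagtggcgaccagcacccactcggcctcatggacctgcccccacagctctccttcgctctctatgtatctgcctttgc
Ffar3: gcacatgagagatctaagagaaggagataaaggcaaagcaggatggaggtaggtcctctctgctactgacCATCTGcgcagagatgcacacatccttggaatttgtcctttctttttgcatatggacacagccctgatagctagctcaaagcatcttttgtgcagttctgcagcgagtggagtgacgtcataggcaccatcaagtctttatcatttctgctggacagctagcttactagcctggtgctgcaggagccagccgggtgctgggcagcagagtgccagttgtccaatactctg
The Ffar1 window held 1 Maf core and 1 E-box, and the Ffar3 window held 1 E-box. The 50 bases after the RefSeq start of Ffar1 open with the start codon ATG. The Ffar1 window thus lies just before the coding sequence and may not be its promoter. Among all 32851 promoters of this length, 19.5% held the Maf core, 17.2% the E-box and 28.4% a Pdx1-type match. Windows of receptor genes on chromosomes other than 8 and 18 numbered 38, which is not 1 per gene. Some genes, such as Ffar2, Cnr1 and Lpar1, had several windows, and others, such as Gipr, had none. Over all chromosomes 29 receptor genes had a window. Of the 38 windows, 21.1% held the Maf core, 10.5% the E-box and 10.5% a Pdx1-type match, so genes with several windows weigh more in these shares. These are matches of letters, and no binding was measured.

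Among the Gs-coupled receptors, those for glucagon and glucagon-like peptide 1 were called lower in 2w Tg7 islets. Gcgr, the glucagon receptor, was at 48.6, 60.9 and 50.1 CPM in the 2w Wt libraries and at 15, 9.48 and 19.0 CPM in the 2w Tg7 libraries. At 12w it was at 38.3, 45.2 and 35.3 CPM in Wt and at 41.7, 57.7 and 54.4 CPM in Tg7 libraries. The groups were apart at 2w and overlapped at 12w. In log2 terms the change was -1.87 at 2w (adjusted p = 0.000141, SE 0.22) and 0.37 at 12w (adjusted p = 0.226, SE 0.21). The 2 effects differed by 2.24 (adjusted p = 0.00222, SE 0.30). Gcgr was the 1 receptor gene called higher in this test of the difference between ages (2.86% of 35, beside 0.871% of all tested genes).

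Glp1r, the receptor for glucagon-like peptide 1, was at 50.3, 62.8 and 47.4 CPM in 2w Wt and at 25.2, 15.2 and 12.0 CPM in 2w Tg7 libraries. The groups did not overlap, and the log2 fold change was -1.61 (adjusted p = 0.0499, SE 0.49). The adjusted p of this call varied with the libraries in the fit. With Wt 12w replicate 4 left out the 2w value was -1.62 (adjusted p = 0.000231), and with each age fitted alone it was -1.61 (adjusted p = 0.00358). The call was lost without any 1 of Wt 2w replicates 1, 2 and 3, Tg7 2w replicates 2 and 3 and Tg7 12w replicates 1, 2 and 3, at values between -1.7 and -1.41 (adjusted p 0.0642 to 0.154). At 12w Glp1r was at 29.5, 26.8 and 137 CPM in Wt replicates 1, 2 and 4 and at 20.1, 20.4 and 20.8 CPM in Tg7 libraries. The Tg7 libraries lay below every Wt library and close to each other, while replicate 4 stood far above the other Wt libraries. The log2 fold change was -1.67 (adjusted p = 0.0238, SE 0.49) with that library and -0.45 (adjusted p = 0.189, SE 0.24) without it. It was also lost without any 1 of the Tg7 12w libraries, where the value was between -1.68 and -1.62 (adjusted p 0.0742 to 0.0765). Gipr, the receptor for the other incretin, averaged 71.9 ± 7.57 CPM in 2w Wt and 46.0 ± 4.24 CPM in 2w Tg7 islets (SD, n = 3 in each group here and below). At 12w it averaged 59.4 ± 28 CPM in Wt and 37.2 ± 6.26 CPM in Tg7 islets. Its log2 fold changes, -0.64 (adjusted p = 0.102) and -0.68 (adjusted p = 0.0582), did not pass the test. With each age fitted alone the 2w value of Gipr was called (-0.64, adjusted p = 0.00638), as it was without Wt 12w replicate 2 (-0.65, adjusted p = 0.0104). The 12w value was called without Wt 12w replicate 4 (-0.84, adjusted p = 0.0235) or replicate 1 (-0.91, adjusted p = 0.015), and it was -0.22 (adjusted p = 0.342) without replicate 2. DESeq2 on all libraries also called the 12w value of Gipr (-0.68, adjusted p = 0.0317).

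Vipr1 and Adcyap1r1, receptors that share the peptides VIP and PACAP as ligands, moved in opposite directions at both ages. Vipr1 was at 65.9, 48.4 and 70.2 CPM in 2w Wt and at 25.3, 37.5 and 24.0 CPM in 2w Tg7 libraries. In 12w islets it was at 56.7, 85.8 and 88.5 CPM in Wt and at 25.5, 23.1 and 21.7 CPM in Tg7 libraries. All Tg7 libraries lay below all Wt libraries of their age. The fitted log2 fold change was -1.09 at 2w (adjusted p = 0.00442, SE 0.21) and -1.72 at 12w (adjusted p = 6.67e-05, SE 0.21). Adcyap1r1, which prefers PACAP, was at 1.78, 2.36 and 2.13 CPM in 2w Wt and at 5.82, 5.98 and 3.87 CPM in 2w Tg7 libraries. In the 12w groups it stood at 0.630, 0.556 and 0.533 CPM in Wt and at 5.02, 3.87 and 5.15 CPM in Tg7 libraries. Here every Tg7 library lay above every Wt library of its age. In log2 terms the change was 1.32 at 2w (adjusted p = 0.0102, SE 0.29) and 3.03 at 12w (adjusted p = 3.17e-05, SE 0.34). Without Wt 2w replicate 1 the 2w value was 1.21 (adjusted p = 0.0539). Vipr2, the other VIP receptor, averaged 2.96 ± 0.468 CPM in 2w Wt and 2.26 ± 0.908 CPM in 2w Tg7 islets, and 6.13 ± 0.749 and 7.02 ± 0.571 CPM at 12w. Its log2 fold changes were -0.38 and 0.19 and did not pass the test.

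The remaining Gs genes were called at 12w or not at all. Crhr1, a receptor for corticotropin-releasing hormone, was at 1.48, 0.295 and 0.638 CPM in 2w Wt and at 0.320, 0.390 and 0 CPM in 2w Tg7 libraries, which overlapped. At 12w it was at 2.39, 2.14 and 3.07 CPM in Wt and at 0.0564, 0.166 and 0.114 CPM in Tg7 libraries. These 12w groups, of 92 and 6 counts in all, were apart, with a log2 fold change of -4.41 (adjusted p = 0.0025, SE 0.87). Gpr119, a receptor for lipid amides that raises cyclic AMP in β-cells, was at 25.4, 25.5 and 22.1 CPM in 2w Wt and at 28.2, 38.7 and 25.9 CPM in 2w Tg7 libraries (log2 fold change 0.34, adjusted p = 0.37). In 12w islets it was at 12.5, 8.57 and 16.0 CPM in Wt and at 32.8, 28.1 and 19.7 CPM in Tg7 libraries. The 12w groups were apart, with a log2 fold change of 1.12 (adjusted p = 0.0043, SE 0.24). Adora2a, an adenosine receptor, was at 15.8, 19.7 and 20.1 CPM in 2w Wt and at 24.4, 20.5 and 16.0 CPM in 2w Tg7 libraries, which overlapped. In the 12w groups it stood at 12.6, 15.4 and 11.7 CPM in Wt and at 26.4, 25 and 19.8 CPM in Tg7 libraries, without overlap, and the log2 fold change was 0.84 (adjusted p = 0.00612, SE 0.19). Crhr2, the high-affinity receptor for urocortin 3, averaged between 1.18 and 1.81 CPM in the 4 groups, with log2 fold changes of 0.10 and -0.54 that did not pass the test.

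Among the Gi-coupled receptors, Adora1, the inhibitory adenosine receptor, had the smallest p at 12w. It was at 36.1, 36.2 and 48.2 CPM in 2w Wt and at 14.4, 12.2 and 12.4 CPM in 2w Tg7 libraries. At 12w it was at 79.7, 113 and 97.6 CPM in Wt and at 8.85, 8.63 and 8.30 CPM in Tg7 libraries. The groups were apart at both ages, and the 12w Tg7 libraries held the lowest values of all 12. The log2 fold change was -1.63 at 2w (adjusted p = 3.2e-05, SE 0.16) and -3.49 at 12w (adjusted p = 3.65e-08, SE 0.17). The effect at 12w was lower than that at 2w by a log2 difference of -1.87 (adjusted p = 0.00114, SE 0.22), and Adora1 was the 1 receptor gene called lower in that test (2.86% of 35, beside 0.307% of all tested genes). Within Wt islets Adora1 rose with age by a log2 fold change of 1.27 (adjusted p = 0.000121, SE 0.15). Its exons share 661 bases with Mybph on the opposite strand, and the sources used here do not give whether reads were counted by strand. Mybph itself averaged at most 0.226 CPM in any group.

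Adra2a, the adrenergic receptor through which noradrenaline inhibits insulin secretion, was at 122, 115 and 98.7 CPM in 2w Wt and at 39.3, 38.7 and 28.4 CPM in 2w Tg7 libraries. The 2w groups were apart, with a log2 fold change of -1.65 (adjusted p = 0.000803, SE 0.24). In 12w islets it was at 48.5, 61.8 and 110 CPM in Wt and at 43.8, 54.9 and 45.6 CPM in Tg7 libraries, which overlapped. The 12w log2 fold change was -0.61 (adjusted p = 0.0783, SE 0.24), and -0.20 (adjusted p = 0.422) without Wt 12w replicate 4, while without Wt 12w replicate 1 it was -0.86 (adjusted p = 0.0149).

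Of the 4 somatostatin receptors, which mediate inhibition by δ-cells, Sstr1 and Sstr5 were called at 12w. Sstr5 was at 1.01, 4.42 and 2.02 CPM in 2w Wt and at 1.07, 1.17 and 0.149 CPM in 2w Tg7 libraries, which overlapped. In the 12w groups it stood at 0, 0.159 and 0.133 CPM in Wt and at 0.451, 1.44 and 1.43 CPM in Tg7 libraries, from 4 and 59 counts in all. The 12w groups were apart, with a log2 fold change of 3.24 (adjusted p = 0.031, SE 1). Sstr1 was at 0.653, 0.810 and 0.851 CPM in 2w Wt and at 0.480, 1.36 and 1.64 CPM in 2w Tg7 libraries, which overlapped. At 12w it was at 0, 0.159 and 0.267 CPM in Wt and at 1.13, 0.609 and 1.32 CPM in Tg7 libraries, without overlap and with a log2 fold change of 2.59 (adjusted p = 0.0222, SE 0.75). Both calls rest on few counts: without 1 library, that of Sstr5 was lost in 5 cases (adjusted p 0.0573 to 0.085) and that of Sstr1 in 4 (adjusted p 0.0532 to 0.0771). The 5 libraries were Wt 12w replicates 1, 2 and 4 and Tg7 12w replicates 2 and 3 for Sstr5, and the 4 were Wt 12w replicates 1 and 2 and Tg7 12w replicates 1 and 3 for Sstr1. Sstr3 averaged 115 ± 5.85 CPM in 2w Wt, 95.2 ± 9.15 CPM in 2w Tg7, 148 ± 42.6 CPM in 12w Wt and 154 ± 7.63 CPM in 12w Tg7 islets, and its log2 fold changes of -0.27 and 0.05 did not pass the test. Sstr2 averaged 8.20 ± 0.556 and 9.89 ± 1.03 CPM at 2w and 4.68 ± 0.792 and 7.01 ± 1.53 CPM at 12w in Wt and Tg7 islets, with log2 fold changes of 0.27 and 0.58 (adjusted p = 0.45 and 0.0782).

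Ptger3, a prostaglandin E2 receptor that lowers cyclic AMP, was at 3.98, 3.54 and 3.46 CPM in 2w Wt and at 11.8, 6.49 and 4.17 CPM in 2w Tg7 libraries. In 12w islets it was at 1.89, 2.38 and 3.60 CPM in Wt and at 13.3, 27.4 and 21.6 CPM in Tg7 libraries. The Tg7 libraries lay above the Wt libraries at both ages. The fitted log2 fold change was 1.04 at 2w (adjusted p = 0.0842, SE 0.37) and 2.95 at 12w (adjusted p = 0.000123, SE 0.39), and the difference of the 2 effects, 1.91 (adjusted p = 0.108, SE 0.53), did not pass the test. Without Tg7 2w replicate 3 the 2w value was 1.32 (adjusted p = 0.0328), and DESeq2 on all libraries called it at 1.04 (adjusted p = 0.0438). Npbwr1, a receptor for neuropeptides B and W, was at 0.237, 0.737 and 0.426 CPM in 2w Wt and at 1.01, 0.909 and 1.04 CPM in 2w Tg7 libraries (log2 fold change 1.1, adjusted p = 0.273). At 12w it had 0 counts in every Wt library and 5, 11 and 5 counts in the Tg7 libraries. Against a floor of 3 counts over the Wt group this was at least 4.67-fold higher in Tg7, and the test gave an adjusted p of 0.00973. Npy1r, a receptor for neuropeptide Y, was at 0.415, 0.368 and 0.106 CPM in 2w Wt and at 0.8, 0.649 and 0.546 CPM in 2w Tg7 libraries. In the 12w groups it stood at 0.882, 1.11 and 0.133 CPM in Wt and at 0.0564, 0.111 and 0.172 CPM in Tg7 libraries, which overlapped. In log2 terms the change was 1.17 at 2w (adjusted p = 0.345, SE 0.75) and -2.53 at 12w (adjusted p = 0.0468, SE 0.86). The 12w call rests on 23 and 6 counts and was lost without any 1 of the other 11 libraries, with adjusted p between 0.0546 and 0.181, while without Wt 12w replicate 4 the value was -3.07 (adjusted p = 0.0124).

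Of the remaining Gi genes, Galr1, the galanin receptor, averaged 37.2 ± 4.14 and 29.6 ± 2.55 CPM at 2w and 26.6 ± 9.75 and 32.7 ± 3.99 CPM at 12w in Wt and Tg7 islets. Cnr1, the cannabinoid receptor, averaged 16.0 ± 3.53 and 15.9 ± 1.1 CPM at 2w and 6.12 ± 4.61 and 10.4 ± 2.57 CPM at 12w. The 12w log2 fold changes of 0.29 for Galr1 and 0.74 for Cnr1 did not pass the test, and without Wt 12w replicate 4 they were 0.64 (adjusted p = 0.00979) and 1.59 (adjusted p = 0.0045). Chrm4, a muscarinic receptor, averaged between 8.5 and 11.5 CPM in the 4 groups, and its log2 fold changes of 0.36 and 0.25 did not pass the test. Its exons share 25 bases with Mdk on the opposite strand.

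Of the Gq-coupled receptors other than Ffar1, P2ry1 was called. P2ry1, which binds ADP, was at 38.9, 45.0 and 44.7 CPM in 2w Wt and at 21.1, 12.9 and 13.1 CPM in 2w Tg7 libraries, which were apart. The log2 fold change was -1.45 (adjusted p = 0.00982, SE 0.31). At 12w it was at 25.2, 28 and 69.0 CPM in Wt and at 23.9, 26.2 and 26.3 CPM in Tg7 libraries, and the groups overlapped. The 12w log2 fold change was -0.69 (adjusted p = 0.126, SE 0.31), and -0.06 (adjusted p = 0.849) without Wt 12w replicate 4, while without Wt 12w replicate 1 it was -0.96 (adjusted p = 0.0376). Chrm3, the muscarinic receptor through which acetylcholine amplifies insulin secretion, averaged 20.3 ± 2.28 and 12.0 ± 3.05 CPM at 2w and 15.6 ± 13.2 and 12.6 ± 2.24 CPM at 12w in Wt and Tg7 islets. Its log2 fold changes of -0.76 (adjusted p = 0.245) and -0.34 (adjusted p = 0.607) did not pass the test, and the second was 0.65 (adjusted p = 0.0571) without Wt 12w replicate 4. The 2w value was called without that library (-0.77, adjusted p = 0.0155) and with each age fitted alone (-0.76, adjusted p = 0.0306). Casr, the calcium-sensing receptor, averaged 47.0 ± 3.33 and 38.3 ± 4.47 CPM at 2w and 35.8 ± 24.7 and 23.7 ± 3 CPM at 12w. Its log2 fold changes were -0.30 and -0.61, and the second was 0.13 without Wt 12w replicate 4 and -0.92 (adjusted p = 0.0424) without Wt 12w replicate 1.

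The other Gq genes did not pass the test at either age. Ghsr, the ghrelin receptor that marks δ-cells, averaged 5.49 ± 0.525 and 4.16 ± 0.711 CPM at 2w and 3.70 ± 3.39 and 1.17 ± 0.772 CPM at 12w in Wt and Tg7 islets, with log2 fold changes of -0.40 and -1.67 (adjusted p = 0.698 and 0.0634). Without Wt 12w replicate 4 the second was -0.56 (adjusted p = 0.518), without replicate 2 it was -2.15 (adjusted p = 0.00875), and without Tg7 12w replicate 2 it was -2.29 (adjusted p = 0.047). DESeq2 on all libraries called the 12w value of Ghsr (-1.67, adjusted p = 0.0239). Cckar, the cholecystokinin receptor, averaged 2.51 ± 1.14 CPM in 2w Wt and 7.79 ± 7.2 CPM in 2w Tg7 islets, and 1 library, Tg7 2w replicate 3 at 16.1 CPM, held most of the latter. Its log2 fold changes were 1.65 (adjusted p = 0.0733) and -0.20 (adjusted p = 0.841), and the first was 2.03 (adjusted p = 0.0282) without Tg7 2w replicate 1. DESeq2 on all libraries called the 2w value of Cckar (1.64, adjusted p = 0.0236). Oxtr, the oxytocin receptor, averaged between 24.8 and 39.1 CPM in the 4 groups, with log2 fold changes of 0.25 and -0.41, and Avpr1b, a vasopressin receptor, between 12.9 and 23.3 CPM, with 0.05 and 0.13. The 12w value of Oxtr without Wt 12w replicate 4 was -0.66 (adjusted p = 0.0259).

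Of the receptors with several or no known G proteins, Gprc5b, an orphan receptor of the retinoic acid-inducible family, was higher in Tg7 islets at both ages. It was at 14.8, 12.4 and 15.9 CPM in 2w Wt and at 32.2, 30.3 and 17.5 CPM in 2w Tg7 libraries. In 12w islets it was at 6.18, 9.53 and 10.6 CPM in Wt and at 28.6, 35.5 and 26.5 CPM in Tg7 libraries. The groups were apart at both ages, at 2w by the narrow gap of Tg7 replicate 3. The fitted log2 fold change was 0.89 at 2w (adjusted p = 0.03, SE 0.24) and 1.76 at 12w (adjusted p = 0.000199, SE 0.25). The 2w call was lost without any 1 of Wt 2w replicates 1, 2 and 3 and Tg7 2w replicates 1 and 2 (adjusted p 0.0781 to 0.106). Its exons share 613 bases with Iqck on the opposite strand, which averaged at most 2.2 CPM in any group. Gprc5c, a relative of Gprc5b, averaged 32.2 ± 5.31 and 44.6 ± 1.96 CPM at 2w and 60.0 ± 13.0 and 53.3 ± 4.46 CPM at 12w in Wt and Tg7 islets, with log2 fold changes of 0.47 (adjusted p = 0.0807) and -0.17 (adjusted p = 0.512). The 2w value was called without Wt 12w replicate 4, at 0.47 (adjusted p = 0.0185). Lpar1, a receptor for lysophosphatidic acid, averaged between 2.82 and 3.33 CPM in the 4 groups, and its log2 fold changes of -0.25 and -0.10 did not pass the test.

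**Figure D4:**
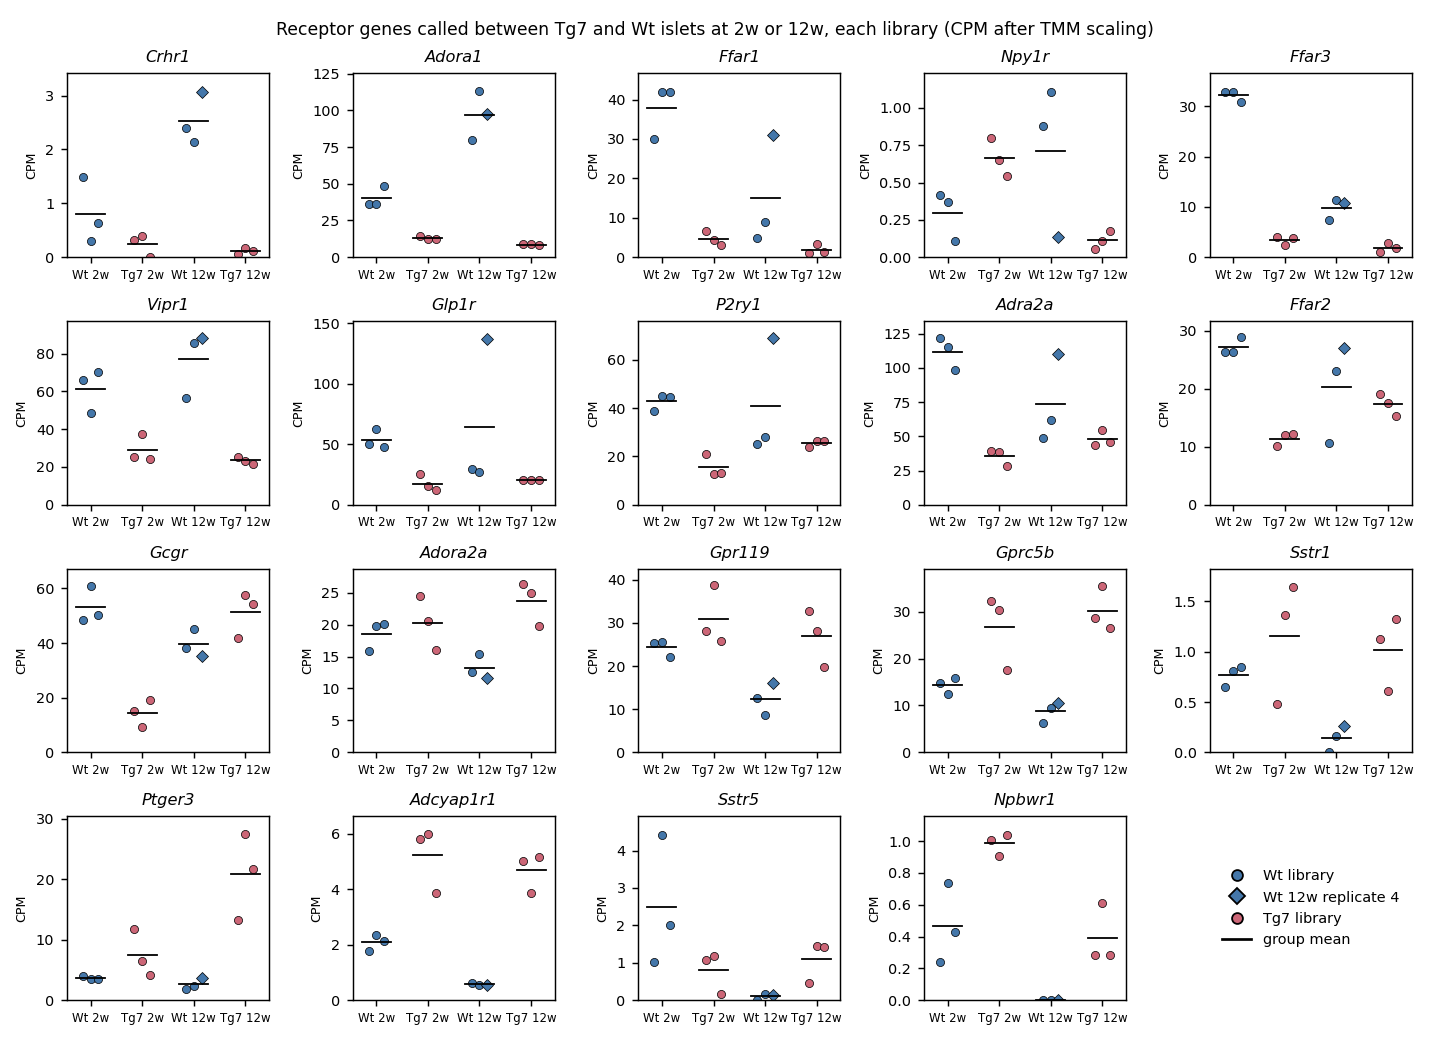
CPM of each library (points) and group means (lines) for the 19 receptor genes called between Tg7 and Wt islets at either age, ordered from the lowest to the highest 12w fold change. Diamonds mark Wt 12w replicate 4, which lies far above the other 12w Wt libraries for Glp1r (137 CPM) and Ffar1 (31.1 CPM) but not for Adora1 (97.6 CPM).

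Drd2, Htr1d and Htr2b did not pass the filter and were not tested. Drd2, a dopamine receptor, had between 0 and 16 counts per library. Htr1d, a serotonin receptor, had 0, 3 and 3 counts in the 2w Wt libraries and 0 counts over each of the other groups, so its 2w groups overlapped. The 6 counts of 2w Wt islets stand 2.2-fold above a floor of 3 counts over the 2w Tg7 group. That fold takes the 6 counts as exact and is no firm bound on a decrease. Htr2b, the serotonin receptor of pregnant islets, had 1 count in each 2w group (ratio 0.907, exact 95% counting interval 0.0116 to 71.2), and its 6 counts at 12w all came from Wt replicate 4. Its exons share 252 bases with Psmd1 on the opposite strand.

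Leaving out Wt 12w replicate 4 changed which receptor genes were called at 12w more than how many. Without it 10 genes were higher (28.6% of 35, beside 13.0% of all genes tested in that fit) and 8 were lower (22.9%, beside 10.7%). Of these, 7 and 6 were also called with all libraries. Cnr1, Galr1 and Sstr2 were gained among the higher genes and Sstr5 was lost, and Gipr and Oxtr were gained among the lower genes and Glp1r was lost. In the test of the difference between ages, 7 genes were called higher without that library (20.0%, beside 2.5% of all genes tested), namely Adra2a, Chrm3, Ffar2, Galr1, Gcgr, P2ry1 and Ptger3. Another 3 were called lower (8.57%, beside 1.01%), namely Adora1, Gprc5c and Npy1r. Gcgr and Adora1 are the genes called in this test both with and without it. Without Wt 12w replicate 1 the genes called lower at 12w numbered 11, and the share of all genes called in that fit is not given here.

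**Figure D5:**
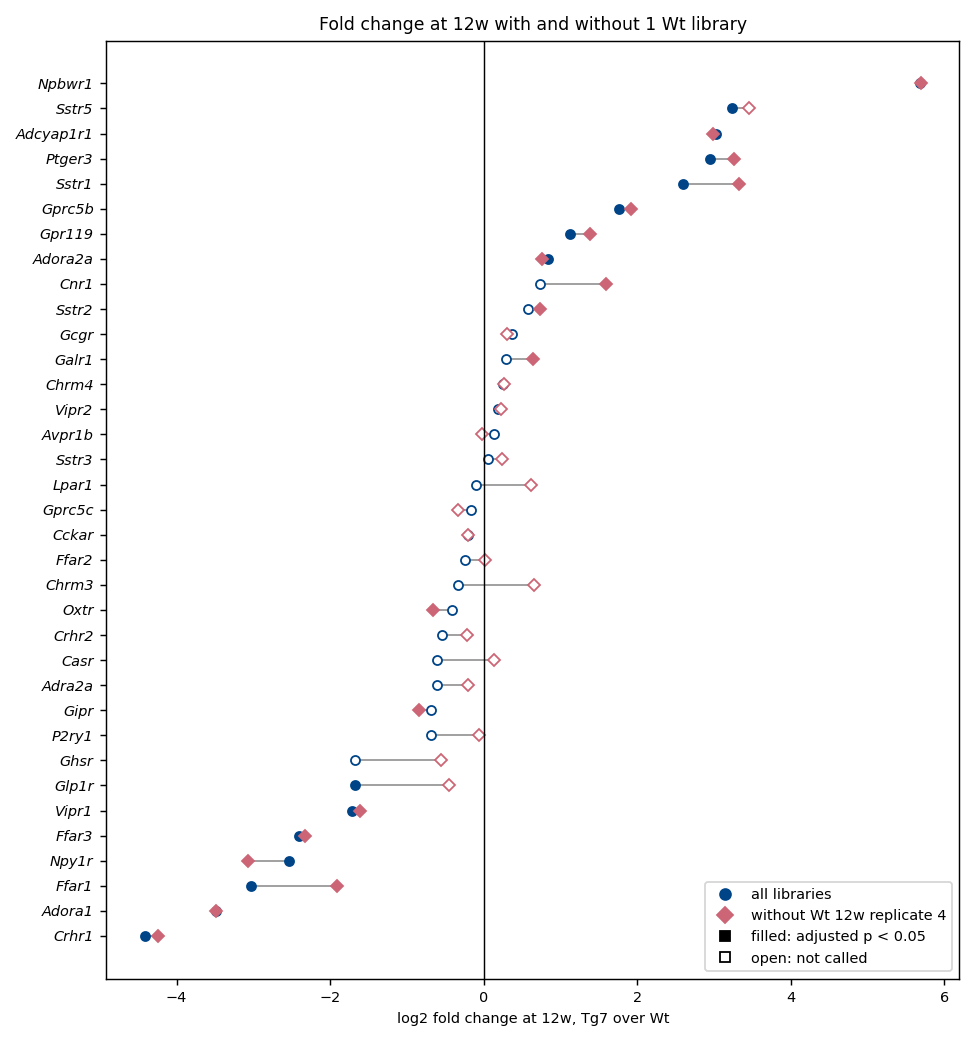
Log2 fold change at 12w (Tg7 over Wt) of the 35 tested receptor genes with all 12 libraries (blue circles) and without Wt 12w replicate 4 (red diamonds). Filled symbols passed the adjusted threshold and open symbols did not. Glp1r moves from -1.67 to -0.45 and Chrm3 from -0.34 to 0.65, while Adora1 stays near -3.49.

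To see how the receptor genes differed with age without the transgene, 12w and 2w Wt islets were compared, where age cannot be told apart from the day of preparation. With all libraries 3 receptor genes were higher at 12w (8.57% of 35, beside 7.9% of all tested genes) and 7 were lower (20.0%, beside 7.91%). The 3 were Adora1, Gprc5c (log2 fold change 0.89, adjusted p = 0.00254, SE 0.17) and Vipr2 (1.05, adjusted p = 0.0279, SE 0.30). The 7 were Adcyap1r1 (-1.86, adjusted p = 0.00265, SE 0.35), Ffar3 (-1.71, adjusted p = 0.000888, SE 0.27), Sstr5 (-4.39, adjusted p = 0.00777, SE 0.97), Cnr1 (-1.36, adjusted p = 0.0367, SE 0.41), Gpr119 (-0.97, adjusted p = 0.0143, SE 0.24), Sstr2 (-0.80, adjusted p = 0.0261, SE 0.22) and Npbwr1. Npbwr1 had 22 counts over the 2w Wt libraries and 0 counts at 12w, at least 5.29-fold lower against the floor of 3 counts. The call of Cnr1 was lost without any 1 of Wt 2w replicates 2 and 3, Wt 12w replicates 1 and 2 and Tg7 12w replicate 3 (values -1.4 to -0.93, adjusted p 0.0515 to 0.134). That of Sstr2 was lost without any 1 of Wt 2w replicates 2 and 3 and Wt 12w replicates 1 and 2 (adjusted p 0.0624 to 0.0945). That of Vipr2 was lost without any 1 of Wt 2w replicates 2 and 3, Wt 12w replicate 2 and Tg7 12w replicate 1 (adjusted p 0.0507 to 0.111), and that of Gpr119 without Wt 2w replicate 2 (adjusted p = 0.0527). Without Wt 12w replicate 4, 4 genes were higher (11.4%, beside 11.4%) and 17 were lower (48.6%, beside 13.0%). The 10 added lower genes were Adra2a, Casr, Chrm3, Ffar1, Galr1, Ghsr, Glp1r, Gprc5b, P2ry1 and Sstr1, with Ffar1 at -2.43 (adjusted p = 0.00112, SE 0.41) and Glp1r at -0.93 (adjusted p = 0.0131, SE 0.24). The count of lower genes was 4 without Wt 2w replicate 2, namely Adcyap1r1, Ffar3, Npbwr1 and Sstr5. The 12w comparison of Tg7 with Wt and this one share the 12w Wt libraries, so their values are not independent.

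The ligands of these receptors that islet cells can make were set beside them. Of 26 genes for peptide ligands or enzymes that make ligands, 17 were tested. At 2w 2 were higher and 3 lower in Tg7 islets (11.8% and 17.6%, beside 6.07% and 4.55% of all tested genes). At 12w 3 were higher and 2 lower (17.6% and 11.8%, beside 12.5% and 11.2%). The enzyme gene Enpp2 was higher at both ages (0.92 and 1.22, adjusted p = 0.00358 and 0.000199). Th was lower at 2w (-1.09, adjusted p = 0.0183), and Ddc at both ages (-0.78 and -0.37, adjusted p = 0.00113 and 0.0412). These enzyme genes were named after their values were seen. Ucn3, the urocortin that β-cells secrete with insulin and a ligand of Crhr2, averaged 244 ± 120 CPM in 2w Wt and 20.1 ± 2.73 CPM in 2w Tg7 islets, and 388 ± 125 and 12.4 ± 1.18 CPM at 12w. Its log2 fold change was -3.60 at 2w (adjusted p = 1.24e-05, SE 0.31) and -4.96 at 12w (adjusted p = 3.6e-07, SE 0.34). Vip, a ligand of Vipr1 and Vipr2, averaged 9.51 ± 2.06 and 6.88 ± 6.74 CPM at 2w and 9.22 ± 0.914 and 58.4 ± 17.3 CPM at 12w, with a log2 fold change of 2.66 at 12w (adjusted p = 0.00176, SE 0.50). Cck, the ligand of Cckar, rose at 12w by 3.41 (adjusted p = 0.016, SE 0.92) on the log2 scale, and all 11 of its 12w Wt counts came from replicate 4, against 61, 63 and 42 counts in the Tg7 libraries. Without Tg7 12w replicate 2 its adjusted p was 0.0513.

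Gcg, which encodes glucagon and glucagon-like peptide 1, averaged 40700 ± 5880 and 56100 ± 18400 CPM at 2w and 32700 ± 10400 and 32300 ± 7700 CPM at 12w in Wt and Tg7 islets, and its log2 fold changes of 0.46 and -0.02 did not pass the test. Sst, which encodes somatostatin, gave 0.01 and -0.46 and did not pass it either. Ppy, a ligand of the neuropeptide Y receptor family, rose at 2w by 1.03 (adjusted p = 0.0475, SE 0.31), while Pyy (0.65 and 0.09) and Npy (-0.10 and 1.26) did not pass the test. Npb gave 0.64 and 0.49 without passing, and Adcyap1, Npw and Ucn2 were below the filter, with at most 21 counts in a group.

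Downstream of the receptors, 25 of 30 G protein subunit genes were tested, with 4 higher and 2 lower at 2w (16.0% and 8.0%, beside 6.07% and 4.55% of all tested genes) and 5 higher and 3 lower at 12w (20.0% and 12.0%, beside 12.5% and 11.2%). Gng12, a gamma subunit, averaged 554 ± 75.6 CPM in 2w Wt and 144 ± 13.7 CPM in 2w Tg7 islets, with a log2 fold change of -1.94 (adjusted p = 1.24e-05, SE 0.17), and at 12w the change was -1.74 (adjusted p = 9.66e-06, SE 0.17). Gna14, an alpha subunit of the Gq family, rose at 2w by 1.59 (adjusted p = 0.0176, SE 0.38) and Gng7, another gamma subunit, by 1.30 (adjusted p = 0.0458, SE 0.39). Gna14 lost its call when 1 of Wt replicates 2 and 3 or of Tg7 replicate 3 at 2w was left out (adjusted p 0.0672 to 0.0849). The Gng7 call was lost without any library other than Wt 2w replicate 1, Wt 12w replicate 1 and Wt 12w replicate 4 (adjusted p 0.05 to 0.15). Of 17 tested RGS genes, which speed the return of G proteins to rest, 2 were higher at 2w (11.8%, beside 6.07% of all tested genes), and at 12w 5 were higher and 2 lower (29.4% and 11.8%, beside 12.5% and 11.2%). Rgs20 rose at 2w by 2.58 (adjusted p = 0.00416, SE 0.49), and Rgs3 fell at 12w with a log2 fold change of -2.11 (adjusted p = 8.68e-05, SE 0.27). Of 9 tested receptor kinase and arrestin genes, 1 was lower at each age (11.1%, beside 4.55% of all tested genes at 2w and 11.2% at 12w), and that was Grk5 (-0.72 and -0.73, adjusted p = 0.03 and 0.0164), named after its values were seen.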

How the data were processed

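RNA of islets was sequenced in 12 libraries, 3 for each genotype and age. The authors deposited raw read counts per Ensembl gene: per the study's methods and the submitters' processing notes, TopHat2 2.0.11 placed the Trimmomatic-trimmed read pairs on mm9, and featureCounts made the gene counts. The strand setting and annotation release were not given in these sources. No column was left out. Library totals ran from 11610697 to 17515758 counts, and intervals and floors (3 counts over a group) cover counting error only. A fold against a floor takes the counts of the other group as exact.

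Genes were tested with edgeR 4.0.16 in R 4.3.3 by its quasi-likelihood test on the counts. One model of the 4 group means with TMM factors held all 12 libraries, and 15961 of 37991 genes passed the filterByExpr step before it (counts of at least 10, total of at least 15). P-values were adjusted by Benjamini-Hochberg over all tested genes, and 0.05 was the threshold. A standard error is the log2 fold change divided by the root of the F statistic. Contrasts were Tg7 against Wt at each age, the difference of these effects, and 12w against 2w in Wt. The fit was tested on simulated data. Alternatives were DESeq2 1.42.0, RLE factors, library size alone, no expression filter, each age alone, a replicate block and leaving out each library.

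The receptor genes, gene lists and markers were chosen with earlier results of these data known. All receptor genes are reported, with values per library for those called between genotypes. In the signalling lists, the genes named were mainly the 5 called genes per age with the largest changes, and the ligands of called receptors. Enpp2, Th, Ddc and Grk5 were named outside this rule, after their values were seen. Other called genes of these lists, such as Gnas and Gng2, are counted but not described. Gene positions and exon lengths came from GENCODE M1 on NCBIM37, which held 37205 of the 37991 identifiers and may differ from the authors' annotation. The miRNA and promoter sequences came from RefSeq (GRCm38.p6) and were matched by name. Nothing says that the pools of a group came from separate days, so p-values measure the spread between these pools.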

Additional observations from a re-analysis of the deposited data

Results flagged for a closer look

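For 2 receptor genes the effect of the transgene differed between the ages by the test of the difference itself. The effect on Adora1 at 12w minus that at 2w was -1.87 on the log2 scale, with log2 fold changes of -1.63 at 2w and -3.49 at 12w. For Gcgr the same difference was 2.24, with log2 fold changes of -1.87 at 2w and 0.37 at 12w. Both calls were kept in each of the fits that left out 1 library, with values between -2.01 and -1.74 for Adora1 and between 2.02 and 2.52 for Gcgr.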

How the results depend on the processing

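The counts of receptor genes called at 12w stayed within 1.5 times under every setting that kept all libraries. At 2w the number called higher was 4 with DESeq2, with library size alone and without the expression filter, against 2. In the difference between ages 3 were higher with DESeq2, library size alone or no filter, against 1. In Wt islets over age, library size alone gave 1 higher and 15 lower, against 3 and 7. Library size alone moved the median of all genes by 0.17 at 2w and 0.44 at 12w on the log2 scale. With 1 library left out, the counts ran from 0 to 3 (2w higher, 0 without Wt 2w replicate 1), 5 to 11 (12w lower), 1 to 7 (difference higher), 1 to 3 (difference lower) and 4 to 17 (Wt over age, lower). Libraries with the same replicate number did not deviate together (correlations -0.167 to -0.0112). These values cannot show whether such libraries shared a litter or a day of preparation. A replicate block, which takes Wt 12w replicate 4 out of the contrasts because it has no partner, gave 7 higher and 2 lower in the difference and 16 lower in Wt over age, against 1, 1 and 7. Each age alone was not run for contrasts that need both ages. Among single calls, Glp1r at 2w was lost with RLE factors (adjusted p = 0.051) and library size alone (0.0874), and at 12w with library size alone (0.0653), each age alone (0.0566) and the replicate block (-0.35, 0.3). Npy1r was lost with library size alone (0.0719) and no filter (0.1), Sstr5 with the replicate block (0.0507), Gng7 with each age alone (0.0616), and over age in Wt Gprc5c (0.0674) and Vipr2 (0.13) with library size alone. Under these settings 25 calls were gained and 11 lost. DESeq2 added Cckar (0.0236) and Ptger3 (0.0438) at 2w and Ghsr (0.0239) and Gipr (0.0317) at 12w. No filter added Cckar, Gipr and Ptger3 at 2w and Adra2a, Ghsr and Gipr at 12w. Library size alone added Cckar and Gprc5c at 2w and Galr1, Gcgr and Sstr2 at 12w. Each age alone added Chrm3, Gipr and Gprc5c at 2w. The replicate block added Gipr (0.0173), Chrm3 (0.0132) and Gprc5c (0.016) at 2w and Cnr1, Galr1, Gipr and Oxtr at 12w. The signs that turned were all of values that had not passed the test: at 2w Cnr1 became 0.00 with RLE factors or each age alone and 0.15 with library size alone. At 12w library size alone gave Cckar 0.27, Chrm3 0.04, Ffar2 0.16, Gprc5c 0.29, Lpar1 0.30 and Oxtr 0.07, and the replicate block gave Casr 0.15, Chrm3 0.66, Ffar2 0.06 and Lpar1 0.89. With 1 library left out, 2w values ran from -0.02 to 0.26 for Adora2a, -0.23 to 0.30 for Avpr1b, -0.14 to 0.18 for Cnr1, -0.19 to 0.71 for Crhr2 and -0.68 to 0.10 for Lpar1. At 12w they ran from -0.10 to 0.25 for Avpr1b, -0.92 to 0.13 for Casr, -0.43 to 0.08 for Cckar, -0.67 to 0.65 for Chrm3, -0.56 to 0.02 for Ffar2, -0.42 to 0.62 for Lpar1 and -0.18 to 0.24 for Sstr3. Beyond what the settings themselves change, the cause was not tested. Genes with few counts in a group (Crhr1, Npbwr1, Npy1r, Sstr1 and Sstr5) are limited by depth.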
